A study of Mus musculus with 8 samples.

Results

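The genes described here are 36 genes known for their induction in reactive astrocytes. The measurement is sequencing coverage from an assay for the transcription factor SOX9, at and around these genes in mouse spinal cord. How far this coverage reflects SOX9 binding was not tested. They were chosen by name, out of 21938 protein-coding genes on chromosomes 1 to 19, X and Y, as 8 genes shared by most forms of astrocyte reactivity (pan-reactive), 11 genes of the panel named A1, 12 genes of the panel named A2 and 5 further complement, matrix and lectin genes. Each gene was measured in 2 windows, from 1 kb before to 1 kb after its transcription start site (TSS), and over the gene body with 5 kb on each side. Coverage of a window is given throughout as a multiple of the mean coverage of the same library, so that 1 is the genome-wide average.

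SOX9 was profiled by CUT&Tag, in which an antibody directs a transposase to the chromatin that a protein occupies and the released fragments are sequenced. The 8 libraries came from the spinal cord of adult wild-type (WT) C57BL/6 mice, for which the labels give no age and the study's methods and reporting summary give different age ranges, and comprised a SOX9 library and a secondary-only control for 1 male and 1 female sample from uninjured cords, and the same from cords at 1 day after a thoracic contusion injury (1 d.p.i.). Each sample held 150000 nuclei, and 20% of the nuclei were set aside as the control. The labels give sorting on the DNA dye 7AAD, while the methods refer to a sort that also used antibodies to NEUN or SOX10, so which cell types were present is not certain. The methods describe pooling of animals without saying how they fell into these samples, so n = 2 counts libraries, 1 per sex, and the p-values measure only the spread between such libraries. No value here separates astrocytes from other cells, and fewer cells of a type and less SOX9 signal per cell cannot be told apart.

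Astrocytes respond to injury of the central nervous system with a graded change of state called reactivity, in which they enlarge, raise intermediate filaments and secrete acute-phase, complement and matrix proteins. The A1 and A2 panels were named after astrocyte responses to systemic inflammation and to ischemia, and the genes of both often appear side by side in injured tissue. SOX9 is a high-mobility-group transcription factor that specifies astrocytes in development and stays on in mature ones, and it is also present in ependymal cells.

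The SOX9 libraries of the uninjured cords held 1891276 fragment starts in the male and 7216730 in the female, and those at 1 d.p.i. held 2529356 in the male and 2385009 in the female. The uninjured female library was therefore the deepest, and windows with few fragments were measured more precisely in it. The secondary-only controls held between 10906 and 52950 fragment starts. Control fragments lying alone on the genome were searched for those whose start and end were also a fragment start and a fragment end of 1 SOX9 library. This held for 93.5% of the uninjured male, 82.3% of the uninjured female, 86.0% of the 1 d.p.i. male and 91.4% of the 1 d.p.i. female control. The 2 boundaries were looked up separately and were not required to belong to the same SOX9 fragment. With positions shifted by 1000 bases the share was at most 0.0428%. Between 1.66% and 3.93% of the lone fragments of a SOX9 library coincided in this way with another SOX9 library. Over the 36 TSS windows the 4 controls together had 7 lone fragments, of which 6 shared both boundaries with a SOX9 library. Over the gene body windows they had 79, of which 72 did. The controls thus gave no independent background at these genes, and their coverage is given as a description only. Summed over the TSS windows it was 6.08 times the library mean in the uninjured male and 2.77 in the uninjured female control. It was 1.64 in the 1 d.p.i. male and 2.88 in the 1 d.p.i. female control. Each control had 1 or 2 fragment starts inside these windows. Ggta1 in the uninjured male and Amigo2 in the uninjured female control were also covered, by fragments that started outside the window.

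Across all coding genes, TSS coverage set the uninjured female library apart from the rest. Averaged over all TSS windows it was 8.72 times the library mean there, against 4.78 in the uninjured male, 6.63 in the 1 d.p.i. male and 5.55 in the 1 d.p.i. female library. Summed over the 36 reactive astrocyte genes, TSS coverage was 2.25 in the uninjured male, 2.79 in the uninjured female, 3.99 in the 1 d.p.i. male and 3.4 in the 1 d.p.i. female library. For these genes both injured libraries lay above both uninjured ones, which was not so for all coding genes together. A sum gives most weight to genes of high coverage, such as Fkbp5 and C4b, which were higher in both injured libraries. The median over the 36 genes was 1.58, 1.92, 2.73 and 3.05 in the same order of libraries. Over all coding genes the median was 2.77, 4.64, 3.58 and 3.24. Summed over the gene bodies, the same 4 libraries gave 1.31, 1.41, 1.84 and 1.68 for the reactive astrocyte genes, again without overlap of the groups. For all coding genes the sums gave 1.62, 1.93, 1.76 and 1.68, with overlap.

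SOX9 coverage at these promoters was moderate. The median reactive astrocyte gene had a mean TSS coverage over the 4 SOX9 libraries of 2.37 times the library mean, against 3.70 for all coding genes. Of the 36 TSS windows, 33 (91.7%) were poor in CpG, with an observed over expected CpG ratio under 0.6, compared with 66.1% of all coding genes. Among such CpG-poor windows the median was 2.29 for the reactive astrocyte genes and 1.73 for all coding genes. Fkbp5, C4b, Lcn2 and Serpina3n had the highest TSS coverage of the 36, with means of 13.1, 8.16, 6.89 and 6.52 over the 4 libraries, and Iigp1 and Tm4sf1 the lowest, with 0.294 and 0.445. In the uninjured male, uninjured female, 1 d.p.i. male and 1 d.p.i. female library Iigp1 had 0.180, 0.294, 0.703 and 0, and Tm4sf1 0, 0.264, 0.787 and 0.727. The gene at the top, Fkbp5, stood at percentile 86.9 of all coding genes and Iigp1 at percentile 11.9.

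The comparison of 1 d.p.i. with uninjured cords asks whether SOX9 coverage at these genes differs after injury. A limma fit to the 4 SOX9 libraries, on log2 of coverage plus 0.5, called 1 of 16344 TSS windows (0.00612%) and 1 of 21473 gene bodies (0.00466%) at an adjusted p under 0.05. Both calls were the predicted gene Gm11361, and 0 of the 36 reactive astrocyte genes passed. At the TSS of Gm11361 the SOX9 libraries had 0, 0.925, 5.87 and 16.1 in the order uninjured male and female, 1 d.p.i. male and female, while the controls had 0, 399, 567 and 0, on 0, 13, 17 and 0 fragment starts. At an unadjusted p under 0.05, 6 reactive astrocyte genes were higher and 1 lower at their TSS, of 30 with at least 10 fragment starts. Of those 6, Slc10a6 and Emp1 had under 10 fragment starts in the uninjured libraries together. They passed that filter only with the injured libraries. Over their bodies 6 reactive astrocyte genes were higher and 0 lower at the same unadjusted p, of 36. Across all coding genes the counts at that threshold were 135 higher and 154 lower for TSS windows and 482 higher and 271 lower for gene bodies.

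Counted by whether the groups overlapped, 9 of the 30 TSS windows had both 1 d.p.i. libraries above both uninjured ones, where 7.1% of all tested TSS windows did, and 6 had both below, where 14.9% did. For gene bodies the counts were 12 of 36 above, against 12.8% of all, and 4 of 36 below, against 13.4%. Of the 9, Slc10a6 and Emp1 had under 10 fragment starts in the uninjured libraries together and passed the filter only with the injured ones. Of the 6 below, Ptx3, Cd109, Fbln5 and Thbs1 had under 10 in the injured libraries together. They passed the filter only with the uninjured libraries. Without a filter 10 of 36 TSS windows were above, against 8.6% of all, and 7 below, against 14.4%. The median log2 change of the 30 TSS windows was 0.27, against -0.08 over all tested TSS windows, and that of the 36 gene bodies 0.06, against -0.02. Without the uninjured female library 15 of the 30 TSS windows (50.0%) were above, against 52.6% of all windows, and 17 of the 36 bodies (47.2%), against 41.5% of all bodies, so both shares were then close to those over all genes. Those below were then 6 of 30, against 19.6% of all windows, and 8 of 36 bodies, against 29.3%. The medians were then 0.39 against 0.31 over all TSS windows and 0.11 against 0.04 over all bodies. Scaled by the median ratio over TSS windows, 9 of 30 were above, against 16.6% of all, with Sphk1, Serpina3n and S1pr3 among them in place of Ggta1, Srgn and Tgm1. With the trimmed mean 8 of 36 bodies were above, against 9.22% of all, without Steap4, Hspb1, S1pr3 and Cd14. Without the uninjured male library 11 TSS windows were above and 9 below, against 10.2% and 65.8% of all windows. Without the 1 d.p.i. male library 14 were above and 9 below, against 15.8% and 34.3%. Without the 1 d.p.i. female library 16 were above and 9 below, against 20.9% and 24.7%. The 6 genes under the filter, Cp, Tm4sf1, Gbp2, Steap4, B3gnt5 and Iigp1, had mean TSS coverage between 0.294 and 0.793 and were not fitted at the TSS.

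**Figure D1:**
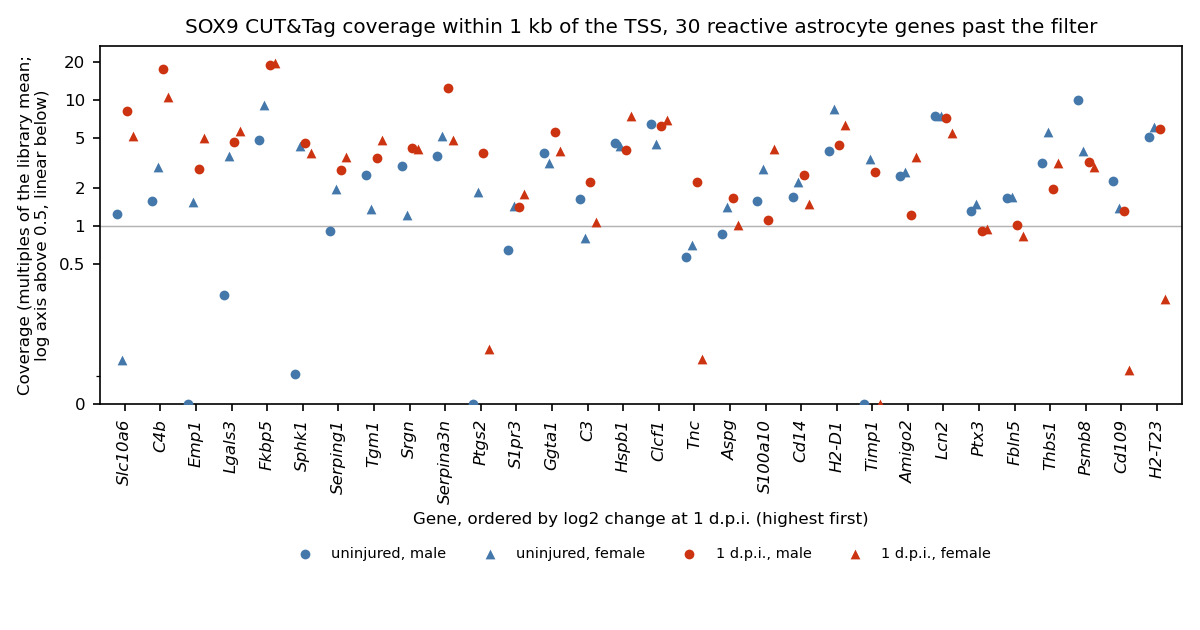
TSS coverage of the 30 reactive astrocyte genes past the filter in the 4 SOX9 libraries, as multiples of the library mean (circles, male; triangles, female; blue, uninjured; red, 1 d.p.i.; the grey line marks the genome-wide average). At Slc10a6, C4b, Emp1, Lgals3 and Fkbp5 both red symbols lie above both blue ones, and at Timp1 1 library of each condition is at 0.

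Among the pan-reactive genes, 0 of 6 TSS windows past the filter were higher in both 1 d.p.i. libraries and 1 was lower. Of all TSS windows tested, 7.1% were higher and 14.9% lower. Of the gene bodies 4 of 8 were higher and 0 lower, where 12.8% and 13.4% of all bodies were. Without the uninjured female library 3 of 6 and 5 of 8 were higher, where 52.6% of all TSS windows and 41.5% of all bodies were. Serpina3n, a secreted inhibitor of serine proteases and one of the genes most induced in reactive astrocytes, had body coverage of 4.00 in the uninjured male, 1.95 in the uninjured female, 6.54 in the 1 d.p.i. male and 7.35 in the 1 d.p.i. female library. Both injured libraries exceeded both uninjured ones, with means of 2.98 ± 1.45 and 6.95 ± 0.575 (SD, n = 2). The log2 change was 1.16 ± 0.34 (SE), the largest of the 36 gene bodies, with an unadjusted p of 0.00295 and an adjusted p of 0.878 in limma. It was 0.72 without the uninjured female library and 1.60 without the uninjured male one. Its TSS window gave 3.58 and 5.17 in uninjured cords and 12.5 and 4.82 at 1 d.p.i., for male and female in turn. At the TSS the 1 d.p.i. male library alone stood out and the groups overlapped.

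Lcn2, which encodes the iron-siderophore carrier lipocalin-2, showed no such difference. Its TSS coverage was 7.49 in the uninjured male, 7.44 in the uninjured female, 7.13 in the 1 d.p.i. male and 5.49 in the 1 d.p.i. female library. The injured libraries were slightly below the uninjured ones, with a log2 change of -0.24 ± 0.66, smaller than its standard error. Over its body window, which also covers parts of Ciz1 and 1110008P14Rik, coverage was 4.71 and 9.74 in uninjured and 6.94 and 6.14 in injured cords, male and female in turn, and the groups overlapped. By its mean over the 4 SOX9 libraries this window ranked at percentile 94.8 of all coding gene bodies.

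Timp1, an inhibitor of metalloproteinases, lies on chromosome X, and its body window overlaps Syn1, a gene of synaptic vesicles, from which it cannot be separated. Its TSS coverage was 0 in the uninjured male, 3.4 in the uninjured female, 2.67 in the 1 d.p.i. male and 0 in the 1 d.p.i. female library. With 0, 21, 5 and 0 fragment starts behind these values, each condition had 1 empty library and no direction could be given. Over the body the values were 1.64, 2.45, 1.73 and 1.18, with a log2 change of -0.38 ± 0.22 and overlapping groups. The bodies of S1pr3, a receptor for sphingosine-1-phosphate, Hspb1, a small heat-shock protein, and Steap4, a metalloreductase, were higher in both injured libraries by log2 changes of 0.34, 0.31 and 0.21, each less than 2 standard errors. Those of Cp, the ferroxidase ceruloplasmin, and Aspg, an asparaginase, had log2 changes of 0.05 and -0.02 with overlap.

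Of the A1 panel, 4 of 9 TSS windows were higher in both injured libraries and 2 lower, where 7.1% and 14.9% of all were. Of the 2 lower, Fbln5 passed the filter only with the uninjured libraries. Over bodies 2 of 11 were higher and 2 lower, where 12.8% and 13.4% of all were. Leaving out the uninjured female library gave 5 of 9 and 3 of 11 higher, against the same 52.6% and 41.5% of all. Fkbp5, a co-chaperone that restrains the glucocorticoid receptor and is itself induced by glucocorticoids, had TSS coverage of 4.84 in the uninjured male, 9.17 in the uninjured female, 18.8 in the 1 d.p.i. male and 19.7 in the 1 d.p.i. female library. The injured libraries were close together and more than 2 times the higher uninjured one. Means were 7.00 ± 3.06 and 19.3 ± 0.655 (SD, n = 2), and the log2 change was 1.46 ± 0.68 (limma, unadjusted p = 0.0315, adjusted p = 1.00). Scaling the libraries by the median ratio over TSS windows brought the adjusted p to 0.0262, with a range of 0.0262 to 1.00 over the 20 alternatives. At the start of the transcript with the longest coding sequence the log2 change was 0.72 and the groups overlapped. Its body, one of the longest among these genes, gave 1.66, 2.0, 3.60 and 2.7, again without overlap.

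Ggta1 encodes a galactosyltransferase that adds a terminal sugar to cell-surface glycans. Its body coverage was 1.3 in the uninjured male, 1.57 in the uninjured female, 3.03 in the 1 d.p.i. male and 2.67 in the 1 d.p.i. female library. The replicates lay close together and the groups apart, at means of 1.44 ± 0.190 and 2.85 ± 0.251 (SD, n = 2). The log2 change was 0.79 ± 0.21 (limma, unadjusted p = 0.00165, adjusted p = 0.778). At the TSS the values were 3.78, 3.13, 5.53 and 3.91, also without overlap but with a log2 change of only 0.39 ± 0.67. Serping1, the inhibitor of complement C1, and Srgn, a proteoglycan of secretory granules, were the other A1 genes with higher TSS coverage in both injured libraries, with log2 changes of 0.96 and 0.90 on 23 and 22 fragment starts in all.

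Psmb8, a catalytic subunit of the immunoproteasome, had TSS coverage of 9.94 in the uninjured male, 3.91 in the uninjured female, 3.24 in the 1 d.p.i. male and 2.92 in the 1 d.p.i. female library. Both injured libraries were lower, but the uninjured male library stood far above the other 3, and the log2 change was -0.92 ± 0.66, or -0.30 without that library. H2-D1 encodes a classical MHC class I heavy chain. Its body coverage was 3.50 and 4.15 in uninjured and 3.31 and 2.79 in injured cords, male and female in turn. The log2 change was -0.28 ± 0.27, or -0.39 to -0.18 when 1 SOX9 library was left out. The MHC class I genes have related neighbours, so the placement of some of their fragments may be uncertain, which was not measured. The nonclassical class I gene H2-T23 had TSS coverage of 5.10, 6.13, 5.92 and 0.374, where the 1 d.p.i. female library alone was low. Fbln5, an elastic-fibre protein, had TSS coverage of 1.67, 1.69, 1.02 and 0.828, lower in both injured libraries with a log2 change of -0.61 ± 0.85. That window passed the filter only with the uninjured libraries. Iigp1, an interferon-inducible GTPase, had body coverage of 0.344, 0.346, 0.288 and 0.269, the lowest body level of the 36, with a log2 change of -0.12 ± 0.25.

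Of the A2 panel, 3 of 10 TSS windows were higher in both injured libraries and 2 lower, where 7.1% and 14.9% of all were. Of its bodies, 4 of 12 were higher and 1 lower, where 12.8% and 13.4% of all were. Of the 3 higher windows, Slc10a6 and Emp1 passed the filter only with the injured libraries. The 2 lower windows, Ptx3 and Cd109, passed it only with the uninjured libraries. Without the uninjured female library 5 of 10 and 7 of 12 were higher, against 52.6% and 41.5% of all. Slc10a6 encodes a sodium-dependent carrier of sulfated steroids. Its TSS coverage was 1.24 in the uninjured male, 0.159 in the uninjured female, 8.16 in the 1 d.p.i. male and 5.21 in the 1 d.p.i. female library. The promoter was near or under the genome-wide average in uninjured cords and well above it in both injured ones. The fragment starts were 2, 1, 18 and 9, with exact Poisson 95% intervals for counting error of 0.242 to 7.22, 0.0253 to 5.57, 10.7 to 28.4 and 4.12 to 17.1. This window passed the filter through the injured libraries, so it had to differ, and its log2 change of 2.71 ± 0.73 (limma, adjusted p = 1.00) is a description only. That its groups did not overlap in 16 of the 16 alternatives that kept all SOX9 libraries is a description for the same reason.

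The body of Slc10a6 gave 0.622, 0.680, 1.67 and 1.47 in the same order of libraries. The libraries of each condition lay close together, with means of 0.651 ± 0.0410 and 1.57 ± 0.139 (SD, n = 2). The log2 change was 0.85 ± 0.18, with the smallest adjusted p of the 36 gene bodies, 0.332 in limma. Counting fragment starts in place of coverage brought it to 0.00357, with a range of 0.00357 to 1.00 over 19 alternatives.

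S100a10 encodes the partner of annexin A2 in a membrane-bound complex that binds plasminogen. Its body coverage was 0.396 in the uninjured male, 0.707 in the uninjured female, 1.22 in the 1 d.p.i. male and 1.90 in the 1 d.p.i. female library. Uninjured libraries lay under the genome-wide average and injured ones above it. The log2 change was 0.97 ± 0.21 (limma, unadjusted p = 0.000253, adjusted p = 0.362), similar in males (0.94) and females (0.99). The adjusted p was under 0.05 in 4 of 19 alternatives, with a range of 0.0171 to 1.00. In 1 of the 4 the injured group was a single library, so the spread came from the uninjured pair alone. At its TSS the groups overlapped, at 1.57, 2.81, 1.12 and 4.05.

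Emp1, a tetraspan membrane protein, had TSS coverage of 0 in the uninjured male, 1.55 in the uninjured female, 2.84 in the 1 d.p.i. male and 5.03 in the 1 d.p.i. female library. Both injured libraries were higher, but on 0, 8, 4 and 8 fragment starts, and the window passed the filter only with the injured libraries. Over the body the groups overlapped, with a log2 change of -0.10 ± 0.18. The TSS change of Emp1 was 2.09 ± 0.80, and 1.07 without the uninjured male library. Tgm1, a transglutaminase, was higher in both injured libraries at its TSS and over its body, with log2 changes of 0.95 ± 0.70 and 0.44 ± 0.22. The body of Cd14, the co-receptor for lipopolysaccharide, was also higher, by 0.35 ± 0.20. Ptx3, a soluble pentraxin, was lower in both, from 1.32 and 1.51 to 0.913 and 0.952 at the TSS and from 0.620 and 0.683 to 0.328 and 0.619 over the body, male and female in turn. The TSS window of Ptx3 passed the filter only with the uninjured libraries. Its body groups all but touched, and the body log2 change of -0.26 was -0.04 without the 1 d.p.i. male library. Cd109, a membrane-anchored protein that binds a TGF-β receptor, had TSS coverage of 2.28 and 1.40 in uninjured and 1.32 and 0.123 in injured cords, a log2 change of -1.11 ± 0.89, or -0.34 without the injured female library. The injured female library had 0 fragment starts in that window, which passed the filter only with the uninjured libraries. The bodies of Ptgs2, Tm4sf1, Clcf1, Sphk1 and B3gnt5 overlapped between groups, with log2 changes between -0.20 and 0.40.

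Of the complement, matrix and lectin genes, C4b differed most. C4b encodes complement component C4, an early step of the classical pathway, and its close copy C4a nearby makes the placement of some fragments uncertain. Its TSS coverage was 1.59 in the uninjured male, 2.96 in the uninjured female, 17.6 in the 1 d.p.i. male and 10.5 in the 1 d.p.i. female library. The lower injured library was more than 3 times the higher uninjured one. Means were 2.27 ± 0.968 and 14.0 ± 5.03 (SD, n = 2), and the log2 change was 2.39 ± 0.66 (limma, unadjusted p = 0.000288, adjusted p = 1.00). Under median-ratio scaling the adjusted p was 0.00111, with a range of 0.00111 to 1.00 over the 20 alternatives. Its body gave 1.65, 1.80, 4.55 and 2.79, with a log2 change of 0.87 ± 0.25, or 0.56 without the 1 d.p.i. male library.

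C3, the central component on which the complement pathways meet, differed from C4b. Its TSS coverage was 1.63 in the uninjured male, 0.812 in the uninjured female, 2.24 in the 1 d.p.i. male and 1.07 in the 1 d.p.i. female library, with 2, 5, 4 and 1 fragment starts. Groups overlapped there and over the body, where coverage was 1.73, 1.78, 2.29 and 1.26. The log2 changes were 0.31 ± 0.83 and -0.02 ± 0.23. Lgals3, the galactose-binding lectin galectin-3, had TSS coverage of 0.391 and 3.60 in uninjured and 4.61 and 5.69 in injured cords, male and female in turn, a log2 change of 1.56 ± 0.70 (limma, unadjusted p = 0.0261). Without the uninjured male library it was 0.46, and without the uninjured female library 2.66. Its groups overlapped over the body, and at the start of the transcript with the longest coding sequence the change was -0.32. Thbs1, the matrix protein thrombospondin-1, was lower in both injured libraries, from 3.19 and 5.53 to 1.96 and 3.18 at the TSS and from 1.55 and 1.57 to 1.42 and 1.26 over the body. The log2 changes of -0.65 ± 0.68 and -0.17 ± 0.19 were smaller than their standard errors. At the TSS the groups of Thbs1 all but touched, and that window passed the filter only with the uninjured libraries. The body of Tnc, the matrix protein tenascin-C, was higher, from 0.746 and 0.682 to 0.877 and 0.856, a log2 change of 0.17 ± 0.18.

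**Figure D2:**
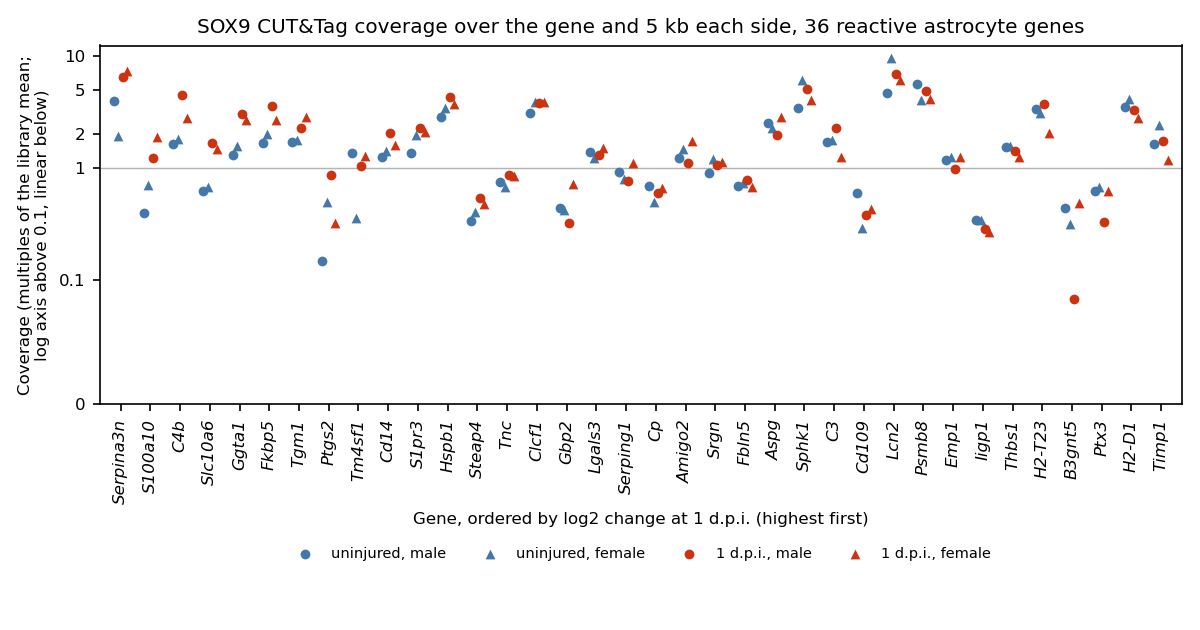
Coverage over the gene body with 5 kb on each side for the 36 reactive astrocyte genes in the 4 SOX9 libraries, as multiples of the library mean (circles, male; triangles, female; blue, uninjured; red, 1 d.p.i.; the grey line marks the genome-wide average). Serpina3n, S100a10, C4b, Slc10a6, Ggta1 and Fkbp5 lead the order, each with both red symbols above both blue ones.

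Male and female libraries moved in opposite directions at 13 of the 30 TSS windows and 19 of the 36 gene bodies of the reactive astrocyte genes, and at 10789 of 16344 and 13416 of 21473 of all. Over the reactive astrocyte genes the median TSS change was 0.44 in males and 0.08 in females, and the median body change 0.13 in both. Over all tested genes the medians were 0.44 in males and -0.59 in females at the TSS, and 0.06 and -0.09 over the bodies. With 1 library per sex and condition the sexes were not compared by a test.

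To see where within each gene the coverage lay, the windows were divided into 1-kb tiles, and the tile with the highest mean over the 4 SOX9 libraries was taken for each gene. In 9 of the 36 genes this tile was higher in both injured libraries, where 10.8% of all coding genes had such a tile, and in 4 it was lower, against 12.8%. Without the uninjured female library it was higher in 18 (50.0%), against 44.2%, and lower in 10, against 27.4%. Counting every tile of the 36 windows, 234 of 1217 (19.2%) were higher in both injured libraries, against 11.7% of the tiles of all coding genes. Without the uninjured female library the shares were 31.0% and 24.4%. The 5 genes with the largest share of such tiles were Serpina3n (9 of 17), Ggta1 (32 of 73), Slc10a6 (13 of 33), C4b (9 of 26) and Fkbp5 (41 of 129). These 5 were picked by their share, so the share of the other 31 genes had to be lower. There 130 of 939 tiles (13.8%) were higher, with 13 of 97 at Tnc, 11 of 110 at Cd109 and 10 of 62 at Cp. Neighbouring tiles can share fragments and are not independent. A tile high in the injured libraries alone can be the highest by this mean, so the choice of tile favours a difference at the highest tiles described next.

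The highest tile of Serpina3n was not at its promoter. It lay at chr12:104415001-104416000 (GRCm38), intergenic, with its summit 1498 bases past the 3′ end of the gene, which runs on the plus strand from 104406729 to 104414329. Coverage there was 2.38 in the uninjured male, 4.58 in the uninjured female, 18.5 in the 1 d.p.i. male and 19.6 in the 1 d.p.i. female library. The injured libraries were close together and above the uninjured ones, on 1, 14, 21 and 23 fragment starts. At Fkbp5 the highest tile, chr17:28518001-28519000, lay upstream of the gene with its summit at position -595 from the TSS, and its coverage was 4.17, 11.7, 26.0 and 29.3 in the same order. Ggta1 had its highest tile in an intron, 1163 bases past the TSS at chr2:35462001-35463000, with 8.76, 5.12, 15.3 and 9.66. These tiles did not overlap between the groups.

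The other genes with the highest tiles showed no such separation. Psmb8 had the highest tile of the 36 genes, at chr17:34202001-34203000, with 33.4, 20.1, 31.5 and 23.1 in the same order of libraries, and the sequence there is a short tandem repeat within the transcript Gm20496. The highest tile of Lcn2, at chr2:32381001-32382000, lay next to the start of its neighbour 1110008P14Rik, with 11.1, 31.1, 20.1 and 19.6. That of Sphk1, the kinase that makes sphingosine-1-phosphate, lay in an exon at chr11:116534001-116535000, with 4.57, 18.1, 9.57 and 6.91. In the last 2 the uninjured female library was the highest of the 4.

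The highest tiles of C4b and Slc10a6 were added after their values were seen. At C4b, chr17:34744001-34745000, with its summit at position -424 from the TSS, had 4.33, 2.9, 22.2 and 8.76. At Slc10a6, chr5:103629001-103630000, with its summit at position -183 from the TSS, had 0, 0.319, 15.6 and 9.14. The Slc10a6 tile held 0 and 1 fragment starts in the uninjured libraries and 17 and 7 in the injured ones.

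**Figure D3:**
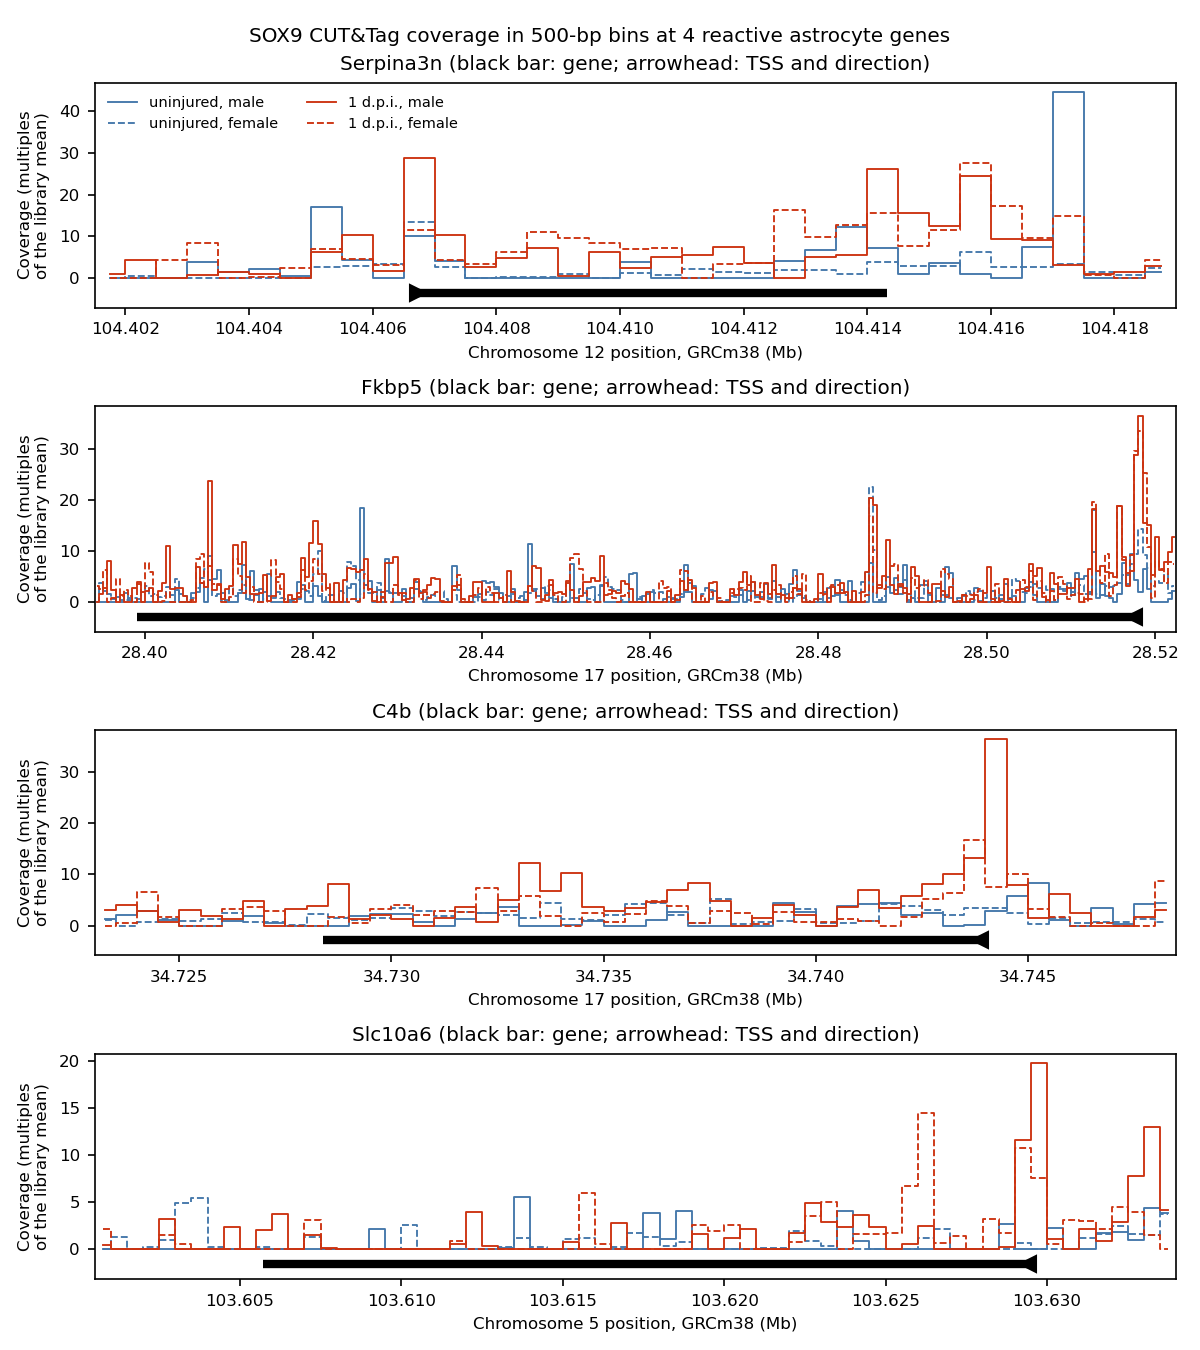
Coverage in bins of 500 bases over Serpina3n, Fkbp5, C4b and Slc10a6 with 5 kb on each side in the 4 SOX9 libraries, as multiples of the library mean (solid, male; dashed, female; blue, uninjured; red, 1 d.p.i.), with the gene drawn as a black bar. The red lines lie above the blue ones past the 3′ end of Serpina3n and around the TSS of Fkbp5, C4b and Slc10a6, and 1 bin of the uninjured male library near the right edge of the Serpina3n panel is the highest of that panel.

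The sequences under these summits were searched on both strands for 3 kinds of motif, the AP-1 motif TGAGTCA, which reads as TGACTCA on the other strand, the SOX motif AACAAAG with its variant AACAATG, and the STAT motif TTCCNGGAA. In the 300 bases at the summit of the highest tile, an AP-1 motif was present in 5 of the 36 genes (Emp1, Serpina3n, Fkbp5, H2-D1 and Clcf1), against 3.95% of all coding genes. A SOX motif was present in 4 (Cd109, Srgn, C4b and Timp1), against 7.76%, and a STAT motif in 0, against 0.852%. Serpina3n was the only one of the 36 with at least 2 AP-1 matches, which 0.15% of all coding genes had, and C4b the only one with 2 different SOX words, which 0.415% had. In the wider TSS windows the AP-1 motif was in 12 of 36 against 24.3% of all, the SOX motifs in 20 against 48.2% and the STAT motif in 4 against 6.24%. A match is a string of letters in the reference and was not tested as a binding site.

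The summit sequences of Serpina3n, Fkbp5, C4b and Slc10a6 are shown as examples of the 9 genes whose highest tile was higher in both injured libraries, and were picked after their values were seen. Those of the other 5, Ggta1, Emp1, Tm4sf1, Cd109 and Iigp1, are not shown. These tiles held 22.5%, 11.1%, 23.8% and 39.1% of the summed difference between the conditions in their body windows, so most of it lay elsewhere in each window. They are the plus strand of RefSeq's GRCm38.p6 assembly, 300 bases each, at chr12:104415677-104415976 (Serpina3n), chr17:28517972-28518271 (Fkbp5), chr17:34744156-34744455 (C4b) and chr5:103629436-103629735 (Slc10a6). All of them lie outside annotated exons, and capitals mark the motif matches.
Serpina3n: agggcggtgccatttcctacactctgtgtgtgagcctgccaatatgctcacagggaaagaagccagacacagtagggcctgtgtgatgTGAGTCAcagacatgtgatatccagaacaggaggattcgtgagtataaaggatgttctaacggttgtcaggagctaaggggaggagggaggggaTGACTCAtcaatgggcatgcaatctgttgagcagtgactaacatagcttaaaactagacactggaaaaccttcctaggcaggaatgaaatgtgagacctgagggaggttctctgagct
Fkbp5: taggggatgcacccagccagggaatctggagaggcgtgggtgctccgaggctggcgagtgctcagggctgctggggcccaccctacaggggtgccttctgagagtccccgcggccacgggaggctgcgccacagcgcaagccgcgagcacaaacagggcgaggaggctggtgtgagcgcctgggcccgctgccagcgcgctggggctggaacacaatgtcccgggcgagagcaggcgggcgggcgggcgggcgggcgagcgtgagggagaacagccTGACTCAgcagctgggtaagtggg
C4b: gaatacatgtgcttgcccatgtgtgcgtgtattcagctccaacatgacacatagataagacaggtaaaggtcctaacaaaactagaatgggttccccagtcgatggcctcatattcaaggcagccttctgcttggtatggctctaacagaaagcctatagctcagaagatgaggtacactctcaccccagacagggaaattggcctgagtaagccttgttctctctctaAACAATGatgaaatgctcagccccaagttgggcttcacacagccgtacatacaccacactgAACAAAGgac
Slc10a6: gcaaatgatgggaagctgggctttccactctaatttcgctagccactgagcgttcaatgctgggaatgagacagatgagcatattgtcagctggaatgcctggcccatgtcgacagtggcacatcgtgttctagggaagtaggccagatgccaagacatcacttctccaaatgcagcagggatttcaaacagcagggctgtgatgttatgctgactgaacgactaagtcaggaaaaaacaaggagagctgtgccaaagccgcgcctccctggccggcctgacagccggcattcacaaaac
The AP-1 match of Fkbp5 stands near the end of its sequence, the Serpina3n sequence holds both orientations, and the Slc10a6 sequence has none of the motifs searched.

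Reactive genes that were not among the 36 were measured in the same way, as Gfap, Vim, Cd44, Osmr, Cxcl10, Stat3 and Ugt1a1. Of these 7, 3 TSS windows and 4 bodies were higher in both injured libraries and 0 lower, where 7.1% and 12.8% of all were higher. Without the uninjured female library 5 of 7 TSS windows were higher, against 52.6% of all, and 5 of 7 bodies were higher and 1 lower, against 41.5% and 29.3%. In limma 0 passed the adjusted threshold, and at an unadjusted p under 0.05 there were 0 TSS windows and 1 body, that of Vim. Their median log2 change was 0.49 at the TSS and 0.27 over the body, and Stat3 had the highest TSS coverage. Vim, the intermediate filament vimentin, had TSS coverage of 2.16 in the uninjured male, 3.35 in the uninjured female, 7.64 in the 1 d.p.i. male and 7.09 in the 1 d.p.i. female library. Both injured libraries were more than 2 times the higher uninjured one, with a log2 change of 1.3 ± 0.66. Its body gave 0.770, 0.905, 1.61 and 1.65, a log2 change of 0.67 ± 0.18 (limma, unadjusted p = 0.00166, adjusted p = 0.778). Gfap, the filament protein used to mark reactive astrocytes, had body coverage of 3.28, 3.58, 5.82 and 5.17.

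Marker lists of cell types were measured in the same windows, and 0 genes of these lists passed the adjusted threshold in limma. The counts below stand beside 7.1% higher and 14.9% lower of all TSS windows, and 12.8% and 13.4% of all bodies. Some TSS windows of these lists passed the filter only through the libraries in which they were higher. At an unadjusted p under 0.05 there were 0 TSS windows, and the bodies were 2 higher and 1 lower for microglia and macrophages, 1 higher for endothelial and 1 lower for fibroblast and mural genes, and 0 for the others. Median TSS log2 changes ranged from -0.42 for fibroblast and mural to 0.51 for microglia and macrophage genes. Of 14 astrocyte genes, 1 of 13 TSS windows past the filter was higher in both injured libraries and 3 lower, and 5 of 14 bodies were higher and 1 lower. Summed TSS coverage of the astrocyte list was 6.07 in the uninjured male, 7.81 in the uninjured female, 9.0 in the 1 d.p.i. male and 5.38 in the 1 d.p.i. female library, with overlap. Aldoc had the highest TSS coverage of this list, at a mean of 21.9, and 2 genes (Gja1 and Aqp4) were at 0 in at least 1 library. Sox9 itself had TSS coverage of 4.39, 3.77, 9.45 and 4.63 in the same order, a log2 change of 0.65 ± 0.66. When 1 SOX9 library was left out, that change ranged from 0.17 to 1.12. Gjb6 had 2.81, 2.64, 1.06 and 1.02 at its TSS, a log2 change of -1.06 ± 0.78. The body of Mlc1 was lower, at 2.64, 1.18, 1.13 and 1.16, and that of Sox9 higher, at 1.34, 1.45, 2.39 and 1.56.

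Of 14 microglia and macrophage genes, 5 of 13 TSS windows were higher and 1 lower, and 5 of 14 bodies were higher and 1 lower. Among the 5 TSS windows, C1qa, Itgam and Trem2 had under 10 fragment starts in the uninjured libraries together. They passed the filter only with the injured libraries. The summed TSS coverage of this list was 2.0, 3.27, 3.09 and 2.22, with Cd68 the highest gene and Trem2 at 0 in the uninjured male library. Trem2 had 0, 0.708, 2.2 and 1.89 at its TSS and Aif1 3.34, 3.36, 0.878 and 2.97, while the body of C1qb had 2.1, 1.48, 1.40 and 0.798 and that of Trem2 0.784, 0.652, 1.51 and 0.968. Of 13 neutrophil and monocyte genes only 5 TSS windows passed the filter, 1 higher and 2 lower, and 2 bodies were higher and 1 lower. Their summed TSS coverage was 0.991, 1.1, 0.901 and 0.981, near the genome-wide average, with Ngp the highest and 8 genes at 0 in at least 1 library. Mmp9 had 0.518, 2.44, 2.98 and 2.68 at its TSS and Csf3r 2.49, 3.18, 2.41 and 0.947, and the bodies of Mmp8 and Camp had 0.229, 0.342, 0.426 and 0.624, and 1.54, 1.22, 0.745 and 1.21.

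Of 9 endothelial genes, 2 of 7 TSS windows and 2 of 9 bodies were higher and 0 lower, with summed TSS coverage of 0.920, 1.45, 1.34 and 1.80, Cldn5 the highest and 3 genes at 0 in at least 1 library. Flt1 had 0.785, 1.86, 2.85 and 3.43 at its TSS, and the body of Ly6c1 0.310, 0.359, 0.966 and 0.615. Of 9 fibroblast and mural genes, 0 of 4 TSS windows were higher and 1 lower, and 1 body was higher and 2 lower, with summed TSS coverage of 1.28, 1.72, 0.899 and 1.27, Vtn the highest and 5 genes at 0 in at least 1 library. Pdgfrb had 2.73, 3.01, 2.57 and 1.16 at its TSS, and the bodies of Lum and Vtn had 0.299, 0.292, 0.339 and 0.312, and 4.58, 6.23, 2.69 and 3.65.

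Of 10 oligodendrocyte genes, 0 TSS windows were higher and 2 lower, and 1 body was higher and 2 lower. Their summed TSS coverage was 12.8, 18.4, 16.8 and 12.1, the highest of the lists, with Cnp on top and 0 genes at 0. Sox10 had 30.3, 34.0, 24.9 and 12.9 at its TSS, and the bodies of Olig1 and Sox10 had 5.85, 8.48, 11.9 and 9.84, and 13.1, 19.4, 13.0 and 10.5. Of 9 neuron genes, 0 of 8 TSS windows were higher and 2 lower, and 0 bodies were higher and 4 lower, with summed TSS coverage of 5.62, 9.04, 7.00 and 5.41, Tubb3 the highest and Gad1 at 0 in the uninjured male library. Snap25 had 7.13, 9.46, 5.93 and 3.62 at its TSS and 1.47, 1.77, 1.27 and 1.22 over its body. Without the uninjured female library the TSS windows higher in both injured libraries were 5 of 13 for astrocytes, 6 of 13 for microglia and macrophages, 2 of 5 for neutrophils and monocytes, 5 of 7 for endothelium, 1 of 4 for fibroblast and mural, 6 of 10 for oligodendrocytes and 4 of 8 for neurons, against 52.6% of all. The TSS windows lower in both were 4, 1, 3, 1, 2, 2 and 2 in the same order of lists, against 19.6% of all. Over bodies the counts were 7 higher and 2 lower of 14 for astrocytes, 9 and 2 of 14 for microglia and macrophages, 4 and 7 of 13 for neutrophils and monocytes, 2 and 7 of 9 for endothelium, 2 and 5 of 9 for fibroblast and mural, 4 and 2 of 10 for oligodendrocytes and 2 and 4 of 9 for neurons, against 41.5% and 29.3% of all. The lower counts of the neutrophil and endothelial bodies, 1 and 0 with all libraries, thus depended on that library. The part of these cell types in the values of the reactive astrocyte genes was not tested.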

How the data were processed

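SOX9 signal was read from a deposited list of stretches with a value for each library. The values were taken as unscaled fragment coverage from their structure, since within a library no stretch overlapped another and no adjoining pair had the same value. The submitters' processing notes name Bowtie2 2.5.4, Picard 3.4.0 and SEACR 1.3, with the mm10 build; the step that wrote the coverage is not given in the sources used here, and peaks were not used here. Fragment starts were counted as rises in coverage.

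Genes were the protein-coding genes of GENCODE on chromosomes 1 to 19, X and Y, and sequences came from RefSeq's GRCm38.p6. Window coverage was divided by the library mean, 0.5 was added, and log2 values of windows with at least 10 fragment starts over the 4 SOX9 libraries were fitted in limma 3.58.1 (R 4.3.3) with a trend, two-sided, with Benjamini-Hochberg adjustment over all genes tested. The limma fit was also run on simulated data, and what it recovered there is not given here. Tables were made in Python 3.11.15 with numpy 2.4.6, pandas 2.3.3, scipy 1.17.1 and pysam 0.24.0. Poisson intervals cover counting error only.

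Genes named with values in every library were Lcn2, Serpina3n, Timp1 and C3; up to 5 non-overlapping genes each way with the largest log2 change per window; the 4 highest and 2 lowest TSS windows; genes past the threshold; the 6 highest tiles; and the largest non-overlapping change each way of every marker list. Values of other windows, such as H2-T23, Gfap and the bodies of Fkbp5 and Tnc, were chosen after they were seen. Members and lists were chosen with earlier results of these data known. Alternatives covered scaling, pseudocount, filter, windows, fragment starts, thinning, a replicate block, other fits and leaving out each library.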

Additional observations from a re-analysis of the deposited data

Results flagged for a closer look

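In the values below, the male and the female libraries moved in opposite directions between uninjured and 1 d.p.i. cords, and the value given is the male log2 change minus the female one. With 1 library per sex and condition, these differences have no spread, and each difference was not tested.

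Over all coding genes the difference of the median TSS changes was 1.03 (0.44 in males, -0.59 in females) and that of gene bodies 0.15 (0.06 and -0.09). At TSS windows it was 1.77 for Serpina3n (1.68 and -0.09) and 5.63 for Timp1 (2.67 and -2.96). Over gene bodies it was 1.14 for Lcn2 (0.51 and -0.62), 0.87 for Timp1 (0.06 and -0.81) and 0.70 for C3 (0.32 and -0.37). At the highest tile it was -0.28 for Psmb8 (-0.08 and 0.20), 1.48 for Lcn2 (0.83 and -0.65) and 2.32 for Sphk1 (0.99 and -1.33).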

How the results depend on the processing

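Of the single-gene values under alternatives that kept all libraries, 734 had the direction given in the report and no change of call, 7 passed the threshold and 9 reversed. When 1 SOX9 library was left out, the counts were 192, 1 and 7. The causes were not tested.

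The count of all TSS windows called (1) was 0 with the trimmed mean, 8 with median-ratio scaling (7 higher, 1 lower), 0 without a filter, 0 with at least 30 fragment starts, 2 with the TSS of the longest coding sequence, 0 after thinning and 0 in the fit of 8 libraries. It ranged from 0 to 0 without 1 SOX9 library. The reactive astrocyte TSS windows higher in both injured libraries (9 of 30) were 5 of 15 with at least 30 fragment starts, against 4.53% of all windows. With the longest coding sequence they were 5 of 29, against 6.92%. Without the uninjured male, uninjured female, 1 d.p.i. male and 1 d.p.i. female library in turn they were 11, 15, 14 and 16. The shares of all windows were then 10.2%, 52.6%, 15.8% and 20.9%. Those lower (6 of 30) were 3 of 30 with median-ratio scaling, 3 of 15 with at least 30 starts and 3 of 23 with 0.5 kb. They were 2 of 30 with fragment starts and 1 of 21 after thinning. The shares of all windows under these settings were 13.7% to 15.7%. Without each library in the same order they were 9, 6, 9 and 9, against 65.8%, 19.6%, 34.3% and 24.7%. The median log2 change of the reactive astrocyte windows (0.27) was 0.60 with 0.5 kb, 0.55 after thinning, 0.13 with 2 kb and 0.05 with the longest coding sequence. Without each library in the same order it was 0.03, 0.39, 0.15 and 0.51. That of all windows was then -0.51, 0.31, -0.17 and 0.05.

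The count of all gene bodies called (1) was 11 with the trimmed mean (8 higher, 3 lower), 0 with median-ratio scaling, 0 without flanks, 0 without the TSS window, 21 with fragment starts (20 higher, 1 lower), 0 after thinning, 0 in the fit of 8 libraries and 0 without a trend, and 0 to 18 without 1 library. With sex as a replicate block it was 23 (19 higher, 4 lower). With sex crossed between the groups as the replicate block, chosen after seeing the data, it was 1. The reactive astrocyte bodies higher (12 of 36) were 8 with the trimmed mean, against 9.22% of all bodies. Without the uninjured male, uninjured female, 1 d.p.i. male and 1 d.p.i. female library in turn they were 17, 17, 18 and 16. The shares of all bodies were then 28.7%, 41.5%, 25.6% and 24.0%. Those lower (4) were 1 with the trimmed mean and 1 with fragment starts, against 11.5% and 12.7%, and 8 to 10 without 1 library, against 25.8% to 47.3%. The median log2 change of the reactive astrocyte bodies (0.06) was 0.037 with the trimmed mean, 0.074 with median-ratio scaling and 0.067 without the highest bins. It was 0.093 and 0.034 with pseudocounts of 0.1 and 2, 0.028 without flanks, 0.079 with fragment starts and 0.060 after thinning. Without each library in the same order it was 0.13, 0.11, 0.16 and 0.083. That of all bodies was then -0.08, 0.04, -0.03 and -0.01.

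Timp1 at its TSS had 0.027 with median-ratio scaling and -1.63 to 1.33 without 1 library. C3 had -0.012 with 2 kb and -0.087 to 0.71 at its TSS, and 0.069 with fragment starts and -0.35 to 0.31 over its body. Lcn2 had 0.35 without flanks, 0.027 after thinning and -0.54 to 0.43 over its body. With 2 kb the TSS of Mmp9 had -0.084. With the longest coding sequence Lgals3 had -0.32 and Aif1 0.16, and without flanks the body of Camp had 0.43.

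S100a10 over its body passed the threshold at adjusted p values of 0.0421 (trimmed mean), 0.0180 (fragment starts), 0.0171 (sex as replicate block) and 0.0219 (without the 1 d.p.i. male library, where 1 injured library was set against the spread of the uninjured pair), in a range of 0.0171 to 1.00. Serpina3n passed with fragment starts at 0.0323, in a range of 0.0323 to 1.00.

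Control coverage of the gene bodies was 1.25 without flanks; leaving out each control in turn, chosen after seeing the data, gave 2.43 to 3.91 at the TSS and 1.40 to 1.52 over the bodies. Precision is limited by 2 libraries per condition, 1 of each sex, and by depth, since 15 of the 36 TSS windows had at least 30 fragment starts.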
